A study of Homo sapiens with 37 samples.

Results

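A set of 9 adhesion molecules of the cell surface was followed in K562 cells with and without a knockout of ZBTB7A, a zinc finger and BTB domain transcription factor. The 9 genes were MCAM, ALCAM, BCAM, ICAM1, ICAM3, ICAM4, CD58, CD47 and BSG, taken by symbol. They were chosen with the comparison of knockout and control libraries in view, because MCAM had the largest increase among genes whose levels did not overlap between the groups. The differences of these genes between knockout and control are therefore given as a description. No p-value is given for them, and their calls and intervals, which come from the fit over all genes, are used to support nothing. Of the 9 genes, 7 had a row in the count table of 32055 genes, and ICAM3 and ICAM4 were not analysed here. MCAM, ICAM1, CD58, CD47 and BSG were among the 10661 genes above the filter on low counts, while ALCAM and BCAM were below it.

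K562 is a human erythroleukemia cell line with erythroid and megakaryocytic potential. The 26 libraries labelled KO came from cells transfected with a plasmid carrying Cas9 and a guide RNA against ZBTB7A. The 11 libraries labelled Control came from cells given the same plasmid without a guide. Both were sorted as single GFP-positive cells and expanded as clones, which is a limit of the model, since the labels tie no library to a clone. Libraries of a group may therefore be repeat libraries of a clone, and p-values then measure only the spread between these libraries. RNA was counted by SCRB-seq, in which each well has a barcode and each captured molecule a unique molecular identifier (UMI), read from the 3′ end of polyadenylated RNA. Being tag counts, UMIs do not grow with transcript length, so levels can be set side by side between genes.

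Total UMIs ranged from 1070250 to 4270901 in KO libraries (median 2030965) and from 563235 to 4710809 in Control libraries (median 3518944). Barcodes of 6 bases were called GC-rich with at least 4 G or C and AT-rich with at most 2. There were 12 GC-rich and 12 AT-rich KO libraries but 1 GC-rich and 8 AT-rich Control libraries. The library labelled KO with barcode GGCCAC stood apart, and whether its label is right was not tested. Over the 1084 genes called different between the groups, members left out, it lay inside the range of the Control libraries at 80.4% of the genes, against 21.8% to 42.4% in the other KO libraries. ZBTB7A itself was at 5.82 ± 0.29 log2 CPM in Control (SD, n = 11) and 5.95 ± 0.27 in KO libraries (SD, n = 26), and the log2 fold change was 0.12 (SE 0.09, edgeR adjusted p = 0.331). A 3′ count does not show an edit in the coding sequence, so this level does not check the labels. The summed level of the 14 erythroid marker genes in the table, of 15 listed, ranged from 4204 to 9115 CPM in Control and from 3013 to 9833 CPM in KO libraries, so erythroid transcripts were present in every library.

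Adhesion molecules of the immunoglobulin superfamily are membrane proteins whose extracellular immunoglobulin-type domains bind ligands on other cells or in the matrix. MCAM, also called CD146 or MUC18, binds laminins and is known from melanoma and endothelium. ALCAM and BCAM are its close structural relatives. ALCAM binds CD6 and itself, and BCAM carries the Lutheran blood group antigens and binds the laminin alpha 5 chain. ICAM1 is bound by leukocyte integrins and CD58 by CD2, CD47 is a signal to phagocytes through SIRPA, and BSG (basigin, CD147) chaperones monocarboxylate transporters. On red cells BCAM, ICAM4, CD47 and BSG carry or accompany blood group antigens.

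MCAM (ENSG00000076706) lies on the minus strand of chromosome 11, 119308529 to 119321521 (GRCh38, GENCODE release 44). The 250 bases upstream of its RefSeq start are shown because MCAM carries the difference between the groups. Those of BCAM (ENSG00000187244, plus strand of chromosome 19, 44809071 to 44821421) are shown because this relative held the same number of matches to the motifs searched. Any relation of the matches to the levels of these genes was not tested. Capitals mark matches on either strand to GACCC, a core of the sequence bound by ZBTB7A, and to GGGCGG, the GC box. Adjacent GC boxes can share a base. The MCAM window is chr11:119317131-119317380 on the minus strand and the BCAM window chr19:44808809-44809058 on the plus strand (RefSeq, GRCh38.p14).
MCAM: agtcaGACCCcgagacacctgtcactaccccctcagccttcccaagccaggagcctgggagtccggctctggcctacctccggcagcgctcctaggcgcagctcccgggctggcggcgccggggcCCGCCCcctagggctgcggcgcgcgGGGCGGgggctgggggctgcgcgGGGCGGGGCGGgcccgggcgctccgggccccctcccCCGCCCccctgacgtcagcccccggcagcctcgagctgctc
BCAM: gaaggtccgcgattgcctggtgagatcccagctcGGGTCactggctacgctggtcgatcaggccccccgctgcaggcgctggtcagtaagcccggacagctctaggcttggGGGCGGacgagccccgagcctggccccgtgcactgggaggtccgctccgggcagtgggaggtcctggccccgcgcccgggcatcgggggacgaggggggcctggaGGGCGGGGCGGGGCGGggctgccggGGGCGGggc

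Each of these windows held 1 match to GACCC and 5 to GGGCGG, and none to GATAA, the GATA motif. All 9 members matched an entry of the promoter table. GACCC was found upstream of BCAM, ICAM1, ICAM3, ICAM4, CD47 and MCAM, and not of ALCAM, CD58 and BSG. Over 35116 promoters, GACCC occurred in 42.1%, GGGCGG in 42.6% and GATAA in 20.4%. None of the members' windows held GATAA. The MCAM and CD47 windows had the highest GC content of the 9, at 79.6% each, against a median of 58.0% over all promoters. A match of letters is a description of the window and not a binding site.

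MCAM was low in Control libraries and at a higher value in each KO library, by a narrow margin in GGCCAC. Control libraries held 0 UMIs at the lowest, 5 at the median and 15 at the highest, and KO libraries 8, 32.5 and 91. On the scale of log2 CPM (counts scaled to library size, normalised by the trimmed mean of M values, with a prior count of 2), Control libraries ran from -0.35 over 1.46 to 2.28 and KO libraries from 2.31 over 3.87 to 5.04. The groups did not overlap, but the lowest KO library, GGCCAC, lay only 0.03 above the highest Control library, GGGATT. The next KO library, GCTCGC, was at 2.80. The lowest Control value, -0.35, is the floor for 0 UMIs in GTTTAT, the shallowest library. A count of 0 there allows up to 5.33 CPM by counting error alone, while GGCCAC was at 4.18 CPM. The absence of overlap is therefore not resolved for GTTTAT. The 8 UMIs of GGCCAC are also too few to set it apart from GGGATT, at 12 UMIs and 4.07 CPM. The same holds for TCTGCA, a Control library at 15 UMIs and 3.31 CPM. Without overlap were 0.281% of the tested genes, a share from which nothing is read for MCAM, since it was chosen by this criterion.

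The mean level of MCAM was 1.25 ± 0.70 log2 CPM in Control (SD, n = 11) and 3.92 ± 0.72 in KO libraries (SD, n = 26). The log2 fold change was 2.97 (standard error, SE, 0.31, 95% interval 2.37 to 3.57), a 7.84-fold difference. Mean CPM was 1.83 in Control and 16.2 in KO libraries, from 69 and 935 UMIs in all. The plot of MCAM counts by library depth shows that raw UMIs of the groups overlapped between 8 and 15, and that the Control library with 15 UMIs was the deepest of its group. Over the 26 KO libraries MCAM in log2 CPM and total UMIs had r = -0.20 and rho = -0.23, given as a description.

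**Figure D1:**
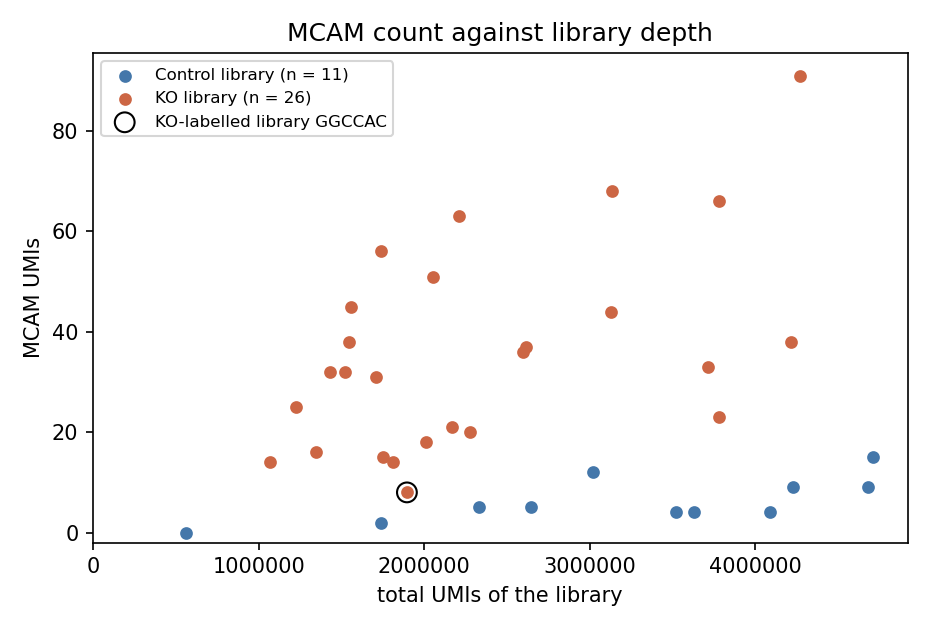
MCAM UMIs of each library (y axis) against its total UMIs (x axis), with 26 KO and 11 Control libraries as points and the library GGCCAC ringed. KO libraries hold 8 to 91 UMIs and Control libraries 0 to 15, and the Control library with 15 UMIs is the deepest of all.

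Among AT-rich barcodes alone, which leaves out GGCCAC, the MCAM log2 fold change was 3.54. Mean levels there were 1.05 ± 0.64 log2 CPM in Control (SD, n = 8) and 4.22 ± 0.65 in KO libraries (SD, n = 12), and the lowest of these KO libraries was at 3.24. The only GC-rich Control library was at 0.96, and the 12 GC-rich KO libraries had a mean of 3.73 ± 0.75. The difference was smallest in the class between, with 2.16 ± 0.17 in 2 Control and 3.32 ± 0.10 in 2 KO libraries. With barcode class as a covariate the log2 fold change was 3.07, and without GGCCAC it was 3.01.

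MCAM and CBL, a ubiquitin ligase gene on the opposite strand, point at each other with their 3′ ends. Their annotated extents overlap by 5398 bases, although the canonical transcripts end 379 bases apart. Whether counting used strand is not given in the sources used here, so reads of longer CBL transcripts cannot be told apart from MCAM. Whether reads in the shared stretch were left uncounted is not given either. CBL was at 5.92 ± 0.15 log2 CPM in Control (SD, n = 11) and 6.13 ± 0.16 in KO libraries (SD, n = 26), and the log2 fold change was 0.20 (SE 0.06, edgeR adjusted p = 0.00704). Within KO libraries CBL and MCAM had r = -0.06.

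BCAM and ALCAM, the relatives of MCAM, were near the limit of detection. BCAM had 1 UMI at the lowest, 2 at the median and 8 at the highest in Control libraries, and 0, 4 and 9 in KO libraries. This is 33 UMIs in all Control and 105 in all KO libraries, or mean levels of 1.17 and 1.80 CPM. Its groups overlapped widely, with 2 of 26 KO libraries above every Control library. The highest Control value came from GTTTAT, the shallowest library, and without it 7 KO libraries lay above the rest. ALCAM (ENSG00000170017, chromosome 3, 105366909 to 105576900, plus strand) had 21 UMIs in all Control and 19 in all KO libraries. It was at 0 in 4 of 11 Control and 13 of 26 KO libraries. Fitted without the count filter, the log2 fold change was 0.80 for BCAM (SE 0.32) and -0.84 for ALCAM (SE 0.47). In the shallowest library, the Control library GTTTAT, a count of 0 allows a level of up to 5.33 CPM by counting error alone, so levels as low as these are not resolved there.

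ICAM1 (ENSG00000090339, chromosome 19, 10271093 to 10286615, plus strand), the ligand of the leukocyte integrins LFA-1 and Mac-1, was low and variable in both groups. Control libraries held 3, 12 and 23 UMIs at the lowest, median and highest, and KO libraries 2, 9 and 28. Levels were 2.41 ± 0.51 log2 CPM in Control (SD, n = 11) and 2.14 ± 0.64 in KO libraries (SD, n = 26), and the log2 fold change was -0.19 (SE 0.22, 95% interval -0.63 to 0.24). KO libraries lay on both sides of the Control range, 3 above and 2 below it. The lower limit was set by the Control library TACTAT, and without it 7 KO libraries lay below. The interval includes a change of -0.5. The gene overlaps LIMASI and ICAM4-AS1 on the other strand, which had 4 and 35 UMIs over the 37 libraries. The stretch shared with ICAM4-AS1, from 10285801 to 10286615, holds the annotated 3′ ends of both genes. Reads there cannot be told apart without strand.

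CD58 (ENSG00000116815, chromosome 1, 116514534 to 116571039, minus strand), which binds CD2 of T cells and natural killer cells, had the smallest spread of the members among KO libraries. Control libraries held 42, 176 and 276 UMIs at the lowest, median and highest, and KO libraries 78, 129 and 270. Levels were 5.90 ± 0.20 log2 CPM in Control (SD, n = 11) and 5.98 ± 0.14 in KO libraries (SD, n = 26), and no KO library lay outside the Control range. The upper limit was set by GTTTAT, and without it 4 KO libraries lay above. The log2 fold change was 0.09 (SE 0.06, 95% interval -0.02 to 0.21), and 0.19 among AT-rich barcodes alone.

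CD47 (ENSG00000196776, chromosome 3, 108043091 to 108091862, minus strand) had 65, 332 and 602 UMIs at the lowest, median and highest in Control libraries, and 95, 212 and 434 in KO libraries. Levels were 6.83 ± 0.23 log2 CPM (SD, n = 11) and 6.72 ± 0.15 (SD, n = 26). The log2 fold change was -0.12 (SE 0.06, 95% interval -0.24 to 0.01), and 2 KO libraries lay below the lowest Control library. The highest KO library was GGCCAC at 7.13.

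BSG (ENSG00000172270, chromosome 19, 571277 to 583494, plus strand) had 65, 360 and 534 UMIs at the lowest, median and highest in Control libraries, and 112, 224 and 492 in KO libraries. Levels were 6.79 ± 0.19 log2 CPM (SD, n = 11) and 6.80 ± 0.22 (SD, n = 26), and the log2 fold change was 0.02 (SE 0.07, 95% interval -0.12 to 0.16). TTAGTT and TGTTTA were the 2 KO libraries above the highest Control library and none lay below the lowest. Without TACTAT 7 lay above, and without CGGTGG 5 lay below. The gene overlaps BSG-AS1 on the other strand, from 571277 to 572228, at the 5′ ends of both. BSG-AS1 had 261 UMIs over the 37 libraries. Reads in the shared stretch cannot be told apart without strand, but the annotated 3′ ends of both genes lie outside it.

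Of the 5 members tested, 1 passed an adjusted p below 0.05 together with a log2 fold change above 0.5 in size, against 10.2% of all tested genes. It was MCAM, in the direction of 6.65% of all tested genes. The median log2 fold change was 0.02 over these 5 members and -0.005 over all tested genes. These counts follow from the choice of the members and are given as a description.

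**Figure D2:**
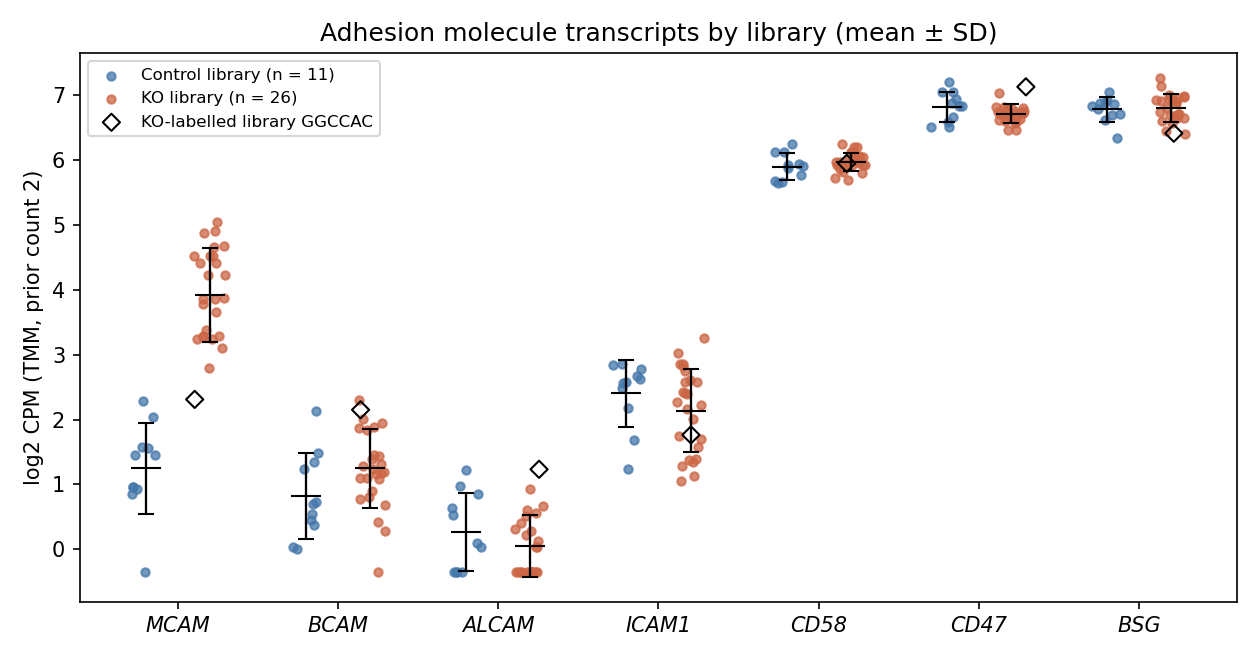
Level of each of the 7 counted members in log2 CPM (y axis) in 11 Control and 26 KO libraries (points), with the mean and SD as black bars and the library GGCCAC as an open diamond. MCAM stands higher in the KO libraries, at a mean of 3.92 against 1.25, and the points of the other 6 genes overlap between the groups.

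The order of the members by mean level changed with the place of MCAM. In Control libraries the order was CD47, BSG, CD58, ICAM1, MCAM, BCAM and ALCAM. The first pair was not separated, since CD47 lay above BSG in 5 of 11 libraries, and neither were the last 4 genes in full: ICAM1 was above MCAM in 8, MCAM above BCAM in 9 and BCAM above ALCAM in 7 of 11 libraries. In KO libraries MCAM stood in the fourth place, above ICAM1 in 26 of 26 libraries and below CD58 in each. BSG was above CD47 in 17 of 26 KO libraries, ICAM1 above BCAM in 20 and BCAM above ALCAM in 23. MCAM remained below the 3 abundant members in KO libraries, at 16.2 CPM against 62.5 for CD58, 105 for CD47 and 112 for BSG.

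Barcode composition was not used in choosing the members, so its effect was tested within KO. Between 12 GC-rich and 12 AT-rich KO libraries, edgeR called 0 of 9987 genes, which is 0%. An unadjusted p below 0.05 was found for 1157 genes (11.6%), more than the share of 0.05 expected if no gene differed. The absence of called genes therefore does not show that the classes are alike. No member was among the 1157, but too few members were tested to read anything from this. limma-voom called 0 genes as well, with 1130 below the unadjusted limit. MCAM was at 3.73 ± 0.75 in GC-rich and 4.22 ± 0.65 in AT-rich libraries (SD, n = 12 each), with a log2 difference of -0.44 (SE 0.27, edgeR adjusted p = 0.529). BSG differed by -0.13 (adjusted p = 0.529), CD58 by -0.07 (adjusted p = 0.685) and CD47 by 0.07 (adjusted p = 0.689). ICAM1 was under the count filter of this fit.

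MCAM varied over a range of 2.73 log2 units among the KO libraries, without a gap larger than 0.49, and the other members were compared with it across these 26 libraries. BSG was higher where MCAM was higher, with Pearson r = 0.56 (adjusted p = 0.0174) and Spearman rho = 0.56 (adjusted p = 0.0195), by permutation over 100000 resamples, two-sided, with Benjamini-Hochberg adjustment over 6 pairs. The raw p-values were 0.0029 and 0.00325. Without the 2 libraries farthest from the median of MCAM, GGCCAC and ATCAAA, the BSG coefficient was r = 0.45 (permutation p = 0.0292, adjusted 0.0876), so the relation passed the threshold only with those libraries. It was r = 0.62 within AT-rich (adjusted permutation p = 0.129) and r = 0.33 within GC-rich KO libraries (adjusted permutation p = 0.438), with n = 12 each.

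CD47 had r = -0.44 with MCAM (permutation p = 0.0242, adjusted 0.0484) and rho = -0.34 (adjusted 0.138). This rested on GGCCAC, the library with the lowest MCAM and the highest CD47 of the KO group: without it r was -0.24, and without the 2 farthest libraries -0.18. ALCAM had r = -0.46 (permutation p = 0.0186, adjusted 0.0484), from 0 to 3 UMIs a library, and r = -0.30 without GGCCAC. At such counts this is no relation to rest on.

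ICAM1 had r = -0.35 with MCAM (permutation p = 0.0839, adjusted 0.126) and rho = -0.36 (adjusted 0.138). Without the 2 farthest libraries it was r = -0.57 (permutation p = 0.004, adjusted 0.024). BCAM had r = 0.20 (permutation p = 0.34, adjusted 0.408) and rho = 0.30 (adjusted 0.162). Without GGCCAC it was r = 0.39 (permutation p = 0.0517, adjusted 0.103) and rho = 0.46 (adjusted 0.0653), and within AT-rich barcodes r = 0.53 (adjusted permutation p = 0.155), at 0 to 9 UMIs a library. CD58 had r = 0.03 (permutation p = 0.887, adjusted 0.887). Every p here takes the libraries as independent, which the labels do not establish.

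**Figure D3:**
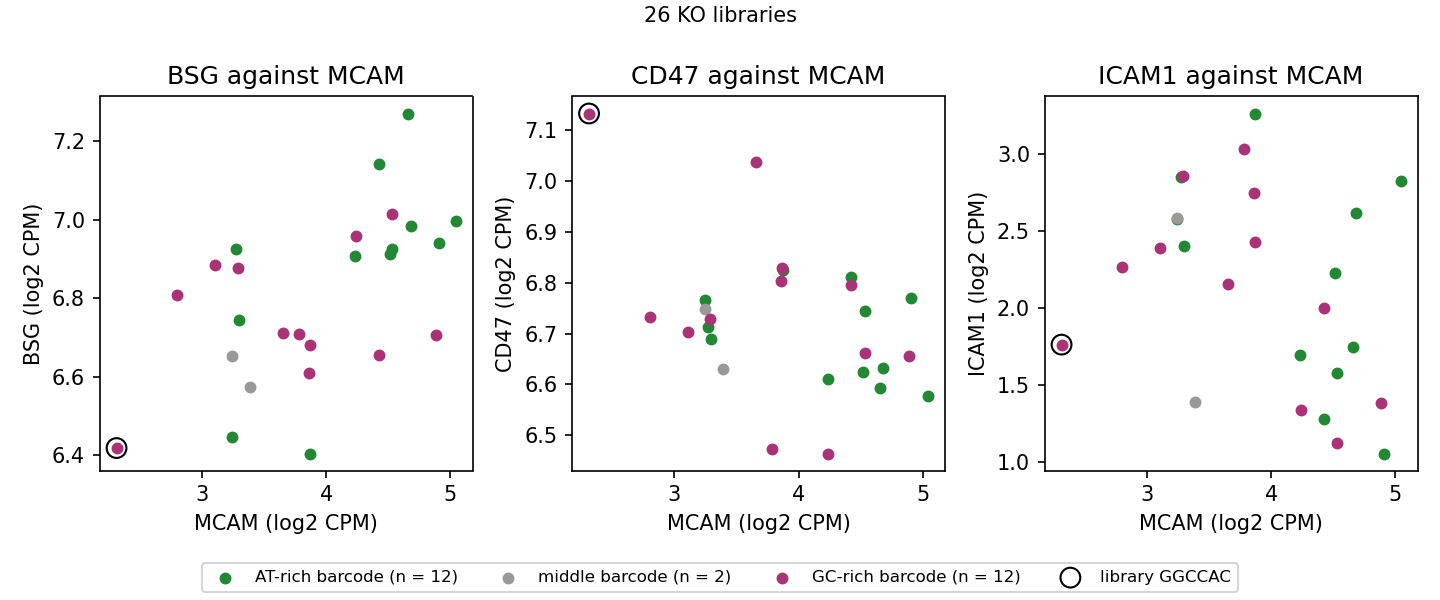
Levels of BSG, CD47 and ICAM1 (y axes) against MCAM (x axes), all in log2 CPM, in the 26 KO libraries, coloured by barcode class, with GGCCAC ringed. BSG is higher with higher MCAM (r = 0.56), GGCCAC is the far point of the CD47 panel (r = -0.44 with it and -0.24 without it), and ICAM1 is scattered (r = -0.35).

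The genes most like MCAM across the 26 KO libraries, out of 8621 genes averaging 10 CPM or more there, were CCND3 (cyclin D3, r = 0.89), APMAP (an adipocyte plasma membrane protein, r = 0.87), AKAP11 (an anchoring protein of protein kinase A, r = 0.87), TUBG1 (gamma tubulin, r = 0.86) and ENSG00000260272 (r = 0.86). Without GGCCAC these coefficients were between 0.83 and 0.87. CCND3 and AKAP11 also rose in KO, with log2 fold changes of 1.24 and 0.87, while those of APMAP, TUBG1 and ENSG00000260272 were 0.27, 0.14 and 0.13 and were not called. In the 11 Control libraries, where MCAM had 0 to 15 UMIs, the coefficients were 0.55 for CCND3, -0.48 for APMAP, -0.61 for AKAP11, -0.62 for TUBG1 and -0.06 for ENSG00000260272. The likeness is a description over libraries that share a group.

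Ligands, receptors and membrane partners of the members were a list of 33 genes, of which 32 had a row and 16 were tested. Of these, 5 rose in KO and none fell, against 10.2% of all tested genes called. The median log2 fold change of the 16 was 0.28, against -0.005 over all tested genes. LAMC1, LAMB1 and LAMA5, which encode chains of laminins, all rose. Of these, the alpha 5 chain of LAMA5 is the chain bound by BCAM. LAMC1, the gamma 1 chain, had 2 to 27 UMIs in Control and 4 to 202 in KO libraries and rose by a log2 fold change of 2.87 (SE 0.40, edgeR adjusted p = 7.1e-07). It lay above the highest Control library in 23 of 26 KO libraries, and GGCCAC, with 4 UMIs, lay below the lowest Control library. At a median of 14 UMIs in Control and 77 in KO libraries, LAMC1 passed the count filter only with KO libraries counted in. The call of LAMC1 is therefore given as a description. LAMB1, the beta 1 chain, rose by 1.05 (SE 0.13, edgeR adjusted p = 7.83e-08) and LAMA5, the alpha 5 chain, by 0.89 (SE 0.11, edgeR adjusted p = 4.02e-08). Each of the latter lay above the Control range in 25 of 26 KO libraries. LAMA4, whose alpha 4 chain is in the laminin best known as an MCAM ligand, was under the filter, with 0 to 4 UMIs a library and none in 22 of 37 libraries.

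THBS1, which encodes thrombospondin 1, a ligand of CD47, had 4 to 68 UMIs in Control and 14 to 235 in KO libraries. It rose by a log2 fold change of 1.89 (SE 0.34, edgeR adjusted p = 5.46e-05), above the Control range in 19 of 26 KO libraries. ITGAM, the alpha subunit of the integrin Mac-1 that binds ICAM1, rose by 1.23 (SE 0.32, edgeR adjusted p = 0.00248) from 1 to 14 UMIs in Control and 0 to 34 in KO libraries. Its call rested on the count filter: with each library left out in turn it was called in 26 of 37 fits, and among AT-rich barcodes alone it was below the filter. Its partner subunit ITGB2 was under the filter, with at most 9 UMIs a library. SIRPA, the receptor of CD47, was also under it, with up to 14 UMIs in Control and 36 in KO libraries.

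The abundant partners moved little. Moesin (MSN), ezrin (EZR) and radixin (RDX), which link membrane proteins to actin, had log2 fold changes of 0.08 (adjusted p = 0.0983), 0.10 (adjusted p = 0.123) and 0.15 (adjusted p = 0.015) by edgeR. SLC16A1, the monocarboxylate transporter MCT1 that BSG accompanies, was at -0.16 (adjusted p = 0.0241), and PPIA, cyclophilin A, which binds BSG when secreted, at -0.19 (adjusted p = 6.18e-04). The values of RDX, SLC16A1 and PPIA passed the adjusted p but not the size limit of 0.5. The mean levels of these 5 genes were between 160 and 342 CPM.

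Among 47 other genes of immunoglobulin-type adhesion, 44 had a row and 15 were tested, and 4 rose and 1 fell, against 6.65% and 3.53% of all tested genes. The median log2 fold change of the 15 was 0.13. ESAM, of endothelial and platelet junctions, had 1 to 8 UMIs in Control and 1 to 178 in KO libraries and rose by a log2 fold change of 3.90 (SE 0.66, edgeR adjusted p = 2.13e-05). With limma-voom the ESAM log2 fold change was 2.84 (adjusted p = 0.0174). At these Control counts ESAM passed the count filter through KO libraries, so its call is given as a description. NFASC, the neural adhesion molecule neurofascin, had 1 to 38 and 13 to 170 UMIs and rose by 3.22 (SE 0.51, edgeR adjusted p = 8.44e-06). The median of NFASC was 11 UMIs in Control and 79.5 in KO libraries. NFASC too passed the count filter through KO libraries, so its call is given as a description. PTK7, a receptor-like pseudokinase of Wnt signalling, rose by 0.90 (SE 0.13, edgeR adjusted p = 7.38e-07). ESAM, NFASC and PTK7 each lay above the Control range in 23 of 26 KO libraries.

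IGSF3, the neighbour of CD58 at a distance of 3360 bases, rose by 0.58 (SE 0.10, edgeR adjusted p = 1.95e-05), with 7 of 26 KO libraries above the Control range, and 20 without the Control library GTTTAT. AMIGO2, a leucine-rich repeat and immunoglobulin-type adhesion molecule, fell by 0.66 (SE 0.19, edgeR adjusted p = 0.00731), and 14 of 26 KO libraries lay below the lowest Control library. The lists of partners and of adhesion genes were written with earlier results of these data known, so their counts are not independent evidence. The counts also hold LAMC1, ITGAM, ESAM and NFASC, which passed the count filter with the help of KO libraries.

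**Figure D4:**
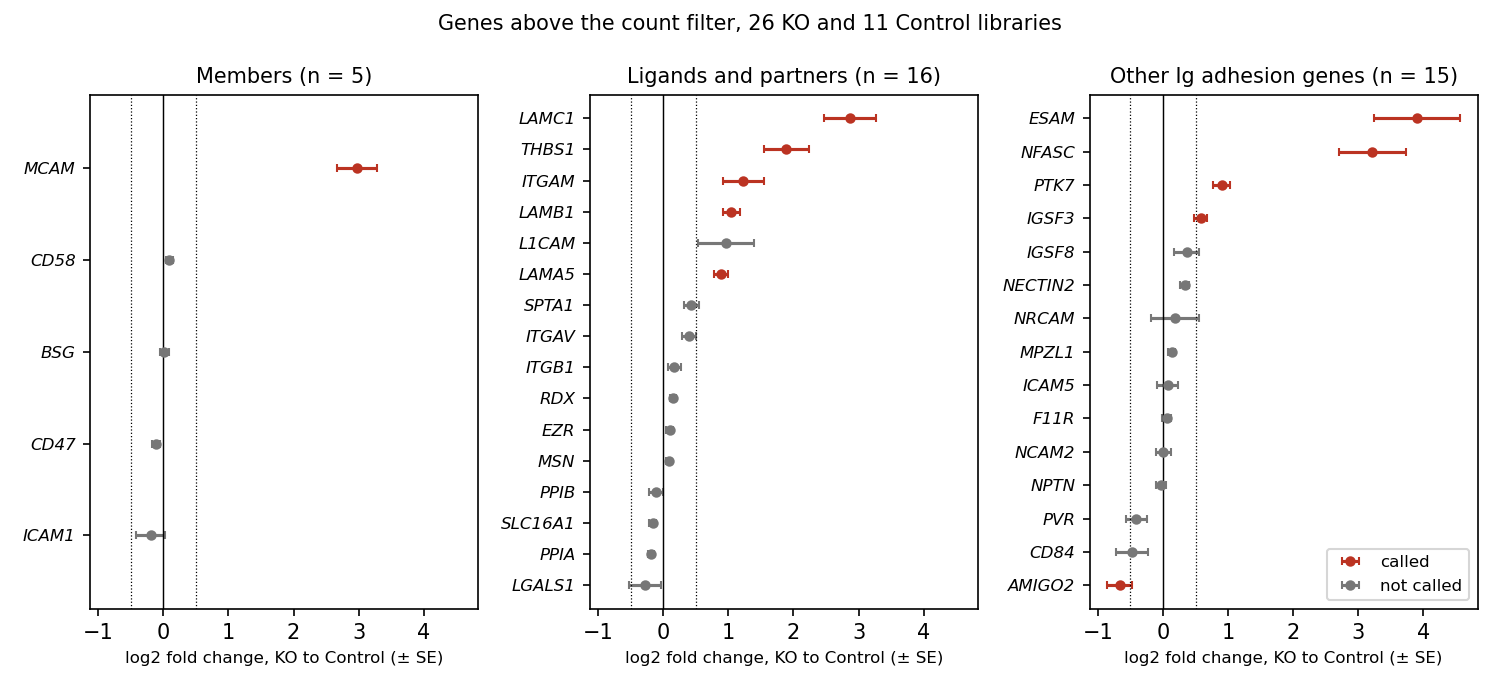
Log2 fold change of KO to Control with its standard error (x axis) for the tested members (n = 5), partners (n = 16) and other immunoglobulin-type adhesion genes (n = 15), with called genes in red and dotted lines at -0.5 and 0.5. MCAM (2.97) is the only member called, beside 5 partners up to LAMC1 (2.87) and 5 other genes from AMIGO2 (-0.66) to ESAM (3.90).

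Most markers of other cell types were below the count filter or had no row. Of 9 endothelial markers, ESAM and EGFL7 were tested and both rose, EGFL7 by a log2 fold change of 0.79 (edgeR adjusted p = 6.32e-09). The summed level of the 9 ranged from 83.4 to 134 CPM in Control and from 97.3 to 318 CPM in KO libraries. Most of it was EGFL7, at a mean of 161 CPM over all libraries. CDH5 was at 0 in 25 of 37 libraries, TEK in 36, VWF in 31, and TIE1 and ENG in 22 each. KDR and PECAM1 were at 0 in 22 and 24 libraries, with at most 2 UMIs in Control but up to 8 and 9 in KO libraries. These 2 genes lay above the Control range in 10 and 7 of 26 KO libraries. Of 9 megakaryocyte markers GP1BA alone was tested, and it rose by 3.35 (edgeR adjusted p = 6.63e-05). The summed level of the 7 in the table ranged from 1.28 to 9.97 CPM in Control and from 2.96 to 61.4 CPM in KO libraries. PF4 was at 0 in 31 of 37 libraries. ITGA2B was at 0 in 2 libraries and reached 19 UMIs in Control and 41 in KO libraries. Of 9 myeloid markers ITGAM alone was tested, and the sum of the 7 in the table ranged from 2.56 to 7.07 CPM and from 3.15 to 16.2 CPM. CD14 was at 0 in 28 libraries and CSF1R in 2. CEBPA, with at most 5 UMIs a library, lay above the Control range in 17 of 26 KO libraries. ESAM, GP1BA and ITGAM had at most 8, 7 and 14 UMIs in Control and passed the count filter through KO libraries. That they were tested and rose was largely set by the filter, so nothing is read from it, beside 6.65% of all tested genes called higher. Of the 15 erythroid markers 13 were tested and 3 rose, ALAS2, EPOR and SLC4A1, with none called lower, beside 10.2% of all tested genes called. Their median log2 fold change was -0.12. TFRC (-0.37, edgeR adjusted p = 1.51e-05), GATA1 (-0.19, edgeR adjusted p = 0.0303) and KLF1 (-0.22, edgeR adjusted p = 0.039) passed the adjusted p but not the size limit, and TFRC lay below the Control range in 20 of 26 KO libraries. Fewer cells with a transcript and less of it per cell cannot be told apart in these bulk libraries, and the part of these markers in the levels of MCAM was not tested.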

How the data were processed

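SCRB-seq libraries of K562 cells were sequenced, and the authors processed them with zUMIs and STAR 2.6.0a against hg38 with Ensembl release 84 gene models. The deposited file holds raw UMI counts per gene, with no normalisation. The strand setting of the counting is not given in the sources used here. Of 32055 gene IDs, 31323 had a symbol, and members were matched by Ensembl ID. Counts of 26 KO and 11 Control libraries were tested with edgeR 4.0.16 (R 4.3.3) by the quasi-likelihood test with trimmed mean of M values normalisation, over the 10661 genes kept by filterByExpr, and p-values were adjusted by Benjamini-Hochberg. Calls needed an adjusted p below 0.05 with a log2 fold change over 0.5 in size. Levels are log2 CPM with a prior count of 2. Alternatives were limma 3.58.1 (voom), DESeq2 1.42.0, RLE scaling, library size alone, no filter, barcode class, AT-rich barcodes alone, left-out libraries, adjusted p alone and prior counts of 0.5 and 5. Counts of KO libraries outside the Control range without each Control library were added after seeing the data. In simulated counts for 10661 genes in the KO and Control design, 100% of 2-fold and 99% of 4-fold changes were recovered, with 3 false calls. Recovery at low counts, such as those of ICAM1 and ITGAM, or with repeat libraries of a clone was not tested.

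The members and gene lists were chosen with earlier results of these data known. Named genes were the members, ZBTB7A, every called gene of the partner and adhesion lists, the 5 uncalled partners of highest mean CPM and the 5 genes most correlated with MCAM. CBL, LAMA4, ITGB2, SIRPA and the marker genes were named after their values were seen. Correlations (scipy 1.17.1) used 100000 permutations. Intervals and zero-count limits (3 counts) cover counting error or the fit alone.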

Additional observations from a re-analysis of the deposited data

Results flagged for a closer look

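Among the 8 AT-rich Control libraries, 2 values stood apart from the rest of their group by Dixon's criterion. MCAM was lowest in GTTTAT, at -0.35 log2 CPM and 0 UMIs, and this was the shallowest library of the series. ICAM1 was lowest in TACTAT, at 1.24 log2 CPM from 4 UMIs. The gap to the nearest library was 0.626 and 0.768 of the group's range, against a critical value of 0.526. That value marks about 5% of groups of normally distributed values by chance. The MCAM value is the floor for 0 UMIs, and both ends of the 7 counted members were examined. The 5% is therefore not the chance of a flag here. Without GTTTAT the log2 fold change of MCAM was 2.94.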

How the results depend on the processing

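The fitted log2 fold change of MCAM was between 2.87 (limma-voom) and 3.54 (AT-rich barcodes alone) and between 2.89 and 3.13 with each library left out in turn. Its difference of mean log2 CPM was 2.68, and 3.15 and 2.18 with prior counts of 0.5 and 5. MCAM was chosen by this contrast, so its call in these fits is no sign of stability. BSG changed sign to -0.014 without CGGTGG and to -0.003 without TTAGTT, with a range of -0.014 to 0.049. With the adjusted p alone, 8 partners were higher and 2 lower. With each library left out, 4 or 5 partners were called higher. Of the other adhesion genes, 2 were lower with limma-voom, without the filter and without GGCCAC, against 1, and 1 or 2 with each library left out. The correlations with MCAM lost or gained the threshold as follows. For ALCAM r was -0.30 without GGCCAC, -0.26 without the 2 farthest libraries, -0.43 with a prior count of 0.5, -0.60 within AT-rich and -0.47 within GC-rich barcodes. For CD47 these were -0.24, -0.18, -0.44, -0.37 and -0.50, and -0.43 with a prior count of 5. For BSG r was 0.47 without GGCCAC, 0.45 without the 2 farthest, 0.62 and 0.33 within AT-rich and GC-rich barcodes. For ICAM1 it was -0.57 without the 2 farthest, and for CD58 -0.19 within GC-rich barcodes, the only sign change. The barcode classes hold 12 libraries each, and the cause of the other shifts was not tested. Scaling moved the median of all genes by at most 0.03 on the log2 scale. No paired analysis was possible because the labels give no replicate numbers. Low counts limit MCAM in Control, ALCAM, BCAM and ICAM1.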
